A study of Mus musculus with 12 samples.

Results

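The genes described here encode 8 subunits of the sodium, calcium and pacemaker channels of the heart: Scn4b, Cacna1c, Cacna2d1, Cacnb2, Cacna1g, Cacna1h, Hcn2 and Hcn4. They were taken by name, with earlier results of these data known, from 20021 named genes on the array. They were read by 13 of its 39429 probes, 2 each for Cacna2d1, Cacnb2, Cacna1g, Cacna1h and Hcn2 and 1 each for the others. The probe with the highest mean signal stands for a gene unless the other one is named.

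The study asked how hearts of mice that overexpress CnAb1, a splice variant of the phosphatase calcineurin, respond to pressure overload. C57/Bl6 mice were used, and RNA of their left ventricles was read on 12 Agilent arrays in 1 colour, 3 in each of 4 groups: CnAb1 transgenic after TAC, CnAb1 transgenic after sham surgery, wild type after TAC and wild type after sham surgery. TAC is trans aortic banding, a constriction that makes the ventricle pump against a raised pressure. All mice were killed 21 days after surgery by the protocol, although sham samples carry a time label of 0. The labels do not name the promoter that drives the transgene, the age or sex of the mice, or whether arrays stand for different animals, so p-values measure the spread between arrays, which may be technical.

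The sodium current starts the upstroke of the cardiac action potential, and the beta-4 subunit encoded by Scn4b is an accessory protein that modifies its gating. L-type calcium channels, built from the pore subunit of Cacna1c with the Cacna2d1 and Cacnb2 subunits, let in the calcium that triggers contraction, whereas the T-type channels of Cacna1g and Cacna1h open at more negative potentials and are abundant in pacemaker and embryonic myocardium. Hcn2 and Hcn4 encode channels of the hyperpolarization-activated pacemaker current, of which Hcn4 is the main form of the sinoatrial node and Hcn2 is also found in ventricular muscle.

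In wild-type hearts 3 of the 7 measured genes, Scn4b, Cacna2d1 and Hcn2, fell after TAC, relative to the 75th percentile of each array, where 13.1% of all named genes passed as lower and 24.9% in either direction. They are the genes on which the results turn, and the 250 bases before their annotated starts are therefore shown, from RefSeq on GRCm38.p6. All 3 lie on the plus strand, at chr9:45138374-45138623 for Scn4b, chr5:15934441-15934690 for Cacna2d1 and chr10:79716384-79716633 for Hcn2, and each reads 5′ to 3′ towards the start.
Scn4b: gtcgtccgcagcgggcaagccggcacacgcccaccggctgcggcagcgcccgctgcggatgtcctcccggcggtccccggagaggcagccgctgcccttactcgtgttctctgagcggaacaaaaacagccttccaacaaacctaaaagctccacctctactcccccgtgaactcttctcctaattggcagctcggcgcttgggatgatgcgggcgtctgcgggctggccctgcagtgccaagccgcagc
Cacna2d1: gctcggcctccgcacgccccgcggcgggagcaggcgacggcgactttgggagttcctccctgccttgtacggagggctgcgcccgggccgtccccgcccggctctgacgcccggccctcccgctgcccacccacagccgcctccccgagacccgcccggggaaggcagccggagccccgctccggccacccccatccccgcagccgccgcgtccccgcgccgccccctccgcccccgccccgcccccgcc
Hcn2: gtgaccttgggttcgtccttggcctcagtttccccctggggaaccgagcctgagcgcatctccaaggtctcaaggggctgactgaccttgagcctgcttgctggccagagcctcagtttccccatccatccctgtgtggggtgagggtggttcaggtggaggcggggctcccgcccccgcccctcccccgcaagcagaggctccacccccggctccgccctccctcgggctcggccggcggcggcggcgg
The windows of 300 bases that run from these bases to 50 past the start were rich in G and C, at 66.3% for Scn4b, 80.0% for Cacna2d1 and 72.3% for Hcn2, against a median of 52.7% over 32851 such windows in the table. They were searched on both strands for 7 motifs: the core GGAAAA of NFAT sites, the MEF2 site (CTA, any 4 bases, TAG), the T-box site AGGTGTGA, the CAGCACC stretch of the RE1 element, the cyclic AMP element TGACGTCA, the TATA box TATAAA and the GATA site AGATAA. None had a match in any window of the 6 members with one, so no base is in capitals. The shares of all windows with a match were 23.4% for the NFAT core, 3.69% for MEF2, 1.28% for the T-box site, 7.14% for the RE1 stretch, 1.79% for the cyclic AMP element, 13.6% for the TATA box and 11.2% for GATA. The search says only that these letters are not in these windows. No window for Cacna1g or Cacna1h was used.

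Values are log2 processed signals minus the array's 75th percentile, so a level of 0 marks that percentile, and levels of different probes are not comparable. The percentile itself lay between 8.98 and 9.24 on the log2 scale on the wild-type sham arrays and between 9.48 and 9.95 on the other arrays. The transgenic sham array numbered 2 stood apart, with 37.0% of probes well above background against 60.2% to 78.1% on the others. All 8 markers of working cardiomyocytes were above background on all 12 arrays, while of the 10 atrial and conduction markers Myl4, Tbx3 and Smoc2 were above it on all 12, Bmp10, Cntn2 and Gja5 on 11, Myl7 on 10, Isl1 on 8, Sln on 4 and Shox2 on 1. Ppp3cb, the gene from which calcineurin A beta is made, had 1 probe: after TAC it averaged 1.43 ± 0.05 in transgenic and 1.28 ± 0.07 in wild-type hearts, and after sham surgery 1.32 ± 0.10 in transgenic and 1.59 ± 0.04 in wild-type hearts (SD, n = 3 each). Transgenic and wild type did not differ past the threshold at this probe (adjusted p = 0.397 after TAC and 0.182 after sham surgery). Whether the probe reads the variant is not given, so it does not check the transgene.

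Each of the 30346 probes well above background on at least 3 arrays was tested in 1 limma model over all 12 arrays, and a gene passed at an adjusted p under 0.05. In transgenic hearts 0 of the 7 measured channel genes passed for TAC against sham, and neither did any other probe (0% of 16644 named genes called; 1905 probes had an unadjusted p under 0.05). In wild-type hearts 3 of 7 passed, all lower, against the 13.1% of named genes given above. All 7 values lay below 0 in wild-type hearts, with a median log2 difference of -0.45 against -0.12 over all probes, but scaled on spike-in probes 5 of 7 lay above 0, with a median of 0.16 against 0.50. In transgenic hearts 6 of 7 lay above 0, with a median of 0.18 against -0.01. Arrays of the 2 surgeries did not overlap for 1 of 7 genes in transgenic hearts, against 9.63% of named genes, and for 4 of 7 in wild-type hearts, against 50.7%. The wild-type sham arrays lay above all 9 others for Scn4b and Cacna2d1, 2 of 7 genes, against 8.52% of named genes, and the wild-type TAC arrays below all 9 others for Cacna2d1 and Hcn2, against 8.47%. Because the samples are whole tissue, fewer cells of a type and less RNA per cell cannot be told apart.

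**Figure D1:**
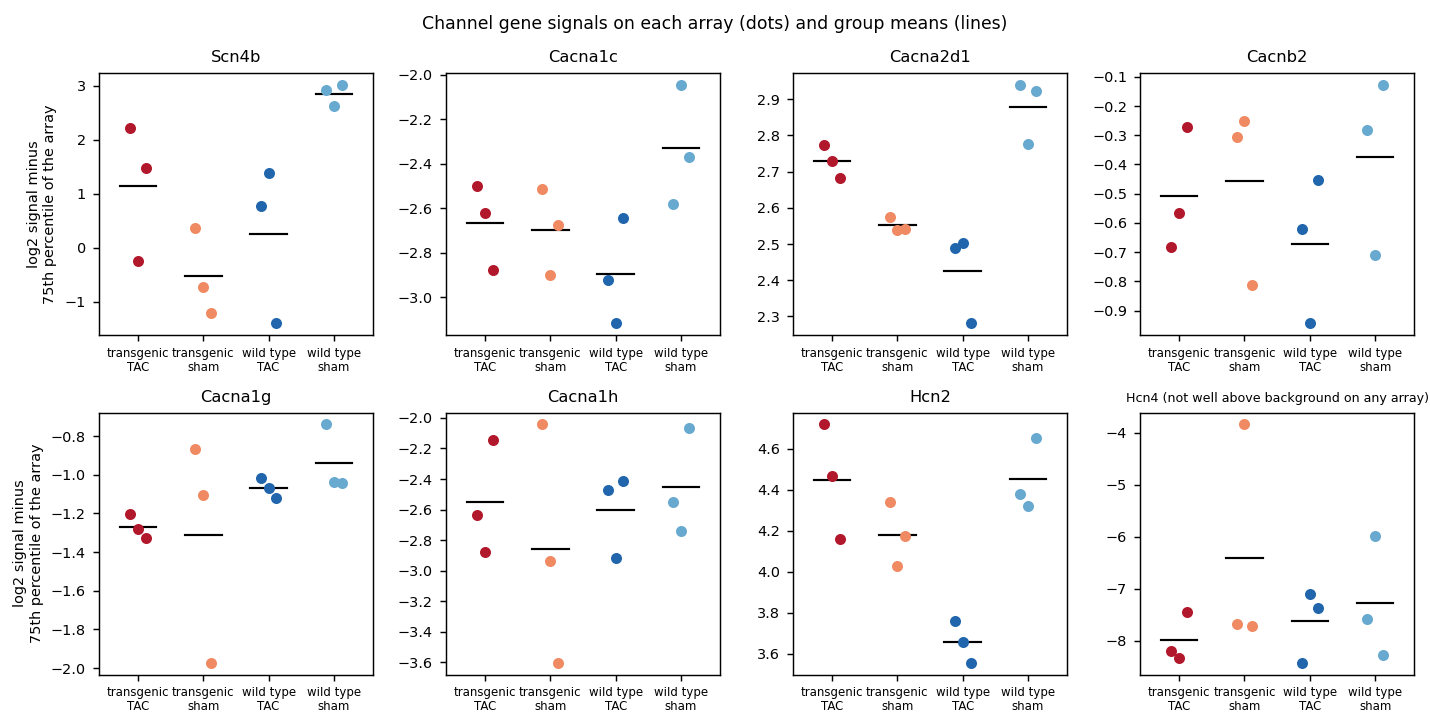
Scaled log2 signal of the leading probe of each channel gene (dots, 1 per array; line, mean of 3 arrays) in transgenic TAC, transgenic sham, wild-type TAC and wild-type sham hearts, each panel with its own vertical scale. The wild-type sham arrays lie above all others for Scn4b and Cacna2d1, the wild-type TAC arrays lie below all others for Hcn2 and Cacna2d1, and Hcn4 is not well above background on any array.

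Scn4b had the widest spread of the channel genes. Its level was 2.21, -0.24 and 1.47 on the transgenic TAC arrays and 0.36, -0.73 and -1.20 on the transgenic sham arrays. It was 0.76, 1.38 and -1.40 on the wild-type TAC arrays, against 2.91, 2.63 and 3.01 on the wild-type sham arrays. The wild-type sham arrays were the 3 highest of 12 and close together, and the other 3 groups overlapped one another. In wild-type hearts Scn4b fell by 2.60 ± 0.78 on the log2 scale after TAC, a level 6.07-fold lower (SE; adjusted p = 0.0400). The difference in transgenic hearts was 1.67 ± 0.78 and did not pass (adjusted p = 0.787). Its residual SD was 1.05, against a median of 0.276 over all probes, and exceeded that of 99.8% of the 2447 probes of like brightness. The wild-type call was lost without wild-type TAC array 3, at -1.78 (adjusted p = 0.131), wild-type TAC array 1 (0.0649) or transgenic TAC array 3 (0.0558). It was also lost without any 1 of the wild-type sham arrays (0.0810 to 0.106). The call did not hold with quantile scaling (adjusted p = 0.0598), normexp background correction (0.0612) or spike-in scaling (0.0794). It held with median scaling (0.0403).

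Cacna1c, the pore-forming subunit of the main L-type channel of ventricular muscle, was dim. Its level was -2.50, -2.62 and -2.88 on transgenic TAC arrays and -2.51, -2.90 and -2.67 on transgenic sham arrays, 1 of them not well above background. It was -2.92, -3.12 and -2.64 on wild-type TAC arrays, against -2.58, -2.05 and -2.37 on wild-type sham arrays. The 2 wild-type groups did not overlap, and the 2 transgenic groups did. The log2 difference for TAC was 0.03 ± 0.18 in transgenic hearts (adjusted p = 0.975) and -0.56 ± 0.18 in wild-type hearts (adjusted p = 0.0547). Neither passed. The wild-type difference was -0.024 with normexp background correction (adjusted p = 0.962) and 0.054 scaled on spike-in probes (adjusted p = 0.880).

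Cacna2d1, the extracellular alpha-2-delta subunit that helps bring L-type channels to the membrane, was the steadiest, with a residual SD of 0.0805 on the log2 scale. Its level was 2.77, 2.73 and 2.68 on transgenic TAC arrays and 2.58, 2.54 and 2.54 on transgenic sham arrays. It was 2.49, 2.50 and 2.28 on wild-type TAC arrays, against 2.94, 2.78 and 2.92 on wild-type sham arrays. At this probe the 4 groups did not overlap, with transgenic hearts between the wild-type groups in both surgeries. The highest transgenic TAC array (2.774) and the lowest wild-type sham array (2.776) nearly touched. In wild-type hearts it fell by 0.45 ± 0.098 on the log2 scale after TAC, 1.37-fold lower (adjusted p = 0.0109), but scaled on the spike-in probes the difference was 0.16 in the other direction (adjusted p = 0.617). In transgenic hearts the difference was 0.18 ± 0.098 (adjusted p = 0.799). Without wild-type sham array 1 the wild-type difference was -0.42 and did not pass (adjusted p = 0.0511). The wild-type call of Cacna2d1 was also lost with quantile scaling (adjusted p = 0.0570), median scaling (0.0812) and normexp background correction (0.111). Its other probe gave 2.52, 2.59 and 2.72 on transgenic TAC arrays, 2.35, 2.37 and 2.48 on transgenic sham arrays, 2.44, 2.64 and 2.23 on wild-type TAC arrays and 2.88, 2.79 and 2.85 on wild-type sham arrays. That probe also fell in wild-type hearts, by 0.40 ± 0.12 on the log2 scale (adjusted p = 0.0376). It did not keep the order of the groups: both transgenic groups overlapped wild-type TAC. The transgenic sham mean (2.40) lay below that of wild-type TAC (2.44).

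Cacnb2, the intracellular beta subunit that traffics the pore and tunes its opening, gave different answers at its 2 probes. At the brighter one the levels were -0.68, -0.56 and -0.27 on transgenic TAC arrays, -0.31, -0.25 and -0.81 on transgenic sham arrays, -0.62, -0.94 and -0.45 on wild-type TAC arrays and -0.28, -0.71 and -0.13 on wild-type sham arrays. All 4 groups overlapped there, and the wild-type difference of -0.30 ± 0.21 did not pass (adjusted p = 0.373). At the dimmer one the levels were -1.99, -2.25 and -1.80 on transgenic TAC arrays, -2.11, -2.55 and -1.93 on transgenic sham arrays, -2.21, -2.36 and -2.08 on wild-type TAC arrays and -1.49, -1.61 and -1.55 on wild-type sham arrays. The wild-type sham arrays lay above all 9 others there, and the probe fell by 0.66 ± 0.17 on the log2 scale in wild-type hearts after TAC (adjusted p = 0.0242). Across the 12 arrays the 2 probes correlated at r = 0.27, against 0.85 for the probes of Cacna2d1, as a description only.

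The T-type pore genes did not pass in any comparison at either probe. Cacna1g was at -1.20, -1.28 and -1.33 on transgenic TAC arrays, -0.87, -1.10 and -1.97 on transgenic sham arrays, -1.02, -1.07 and -1.12 on wild-type TAC arrays and -0.74, -1.04 and -1.04 on wild-type sham arrays. Its TAC difference was 0.04 ± 0.24 in transgenic hearts and -0.13 ± 0.24 in wild-type hearts, with overlapping arrays in both. Cacna1h lay between -2.88 and -2.14 on transgenic TAC arrays, -3.60 and -2.04 on transgenic sham arrays, -2.92 and -2.42 on wild-type TAC arrays and -2.74 and -2.07 on wild-type sham arrays. Its TAC difference was 0.31 ± 0.37 in transgenic and -0.15 ± 0.37 in wild-type hearts. The other probes of both genes pointed upwards in wild-type hearts, with differences of 0.53 for Cacna1g (adjusted p = 0.220) and 0.60 for Cacna1h (adjusted p = 0.195).

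Hcn2 was read at 4.72, 4.47 and 4.16 on transgenic TAC arrays and 4.34, 4.03 and 4.17 on transgenic sham arrays. It was 3.76, 3.65 and 3.56 on wild-type TAC arrays, against 4.38, 4.32 and 4.65 on wild-type sham arrays. The wild-type TAC arrays were the 3 lowest of 12, while the means of transgenic TAC hearts (4.45 ± 0.28) and wild-type sham hearts (4.45 ± 0.18) were alike (SD, n = 3 each). In wild-type hearts Hcn2 fell by 0.79 ± 0.16 on the log2 scale after TAC, 1.73-fold lower (adjusted p = 0.00842), and the call held without any 1 array (adjusted p at most 0.0364). In transgenic hearts the difference was 0.27 ± 0.16 (adjusted p = 0.802). The second probe was at 1.45, 1.14 and 1.29 on transgenic TAC arrays, 1.30, 1.34 and 1.67 on transgenic sham arrays, 0.71, 1.01 and 0.94 on wild-type TAC arrays and 1.55, 1.5 and 1.41 on wild-type sham arrays. The wild-type TAC arrays were again the 3 lowest, and the probe fell by 0.60 ± 0.14 on the log2 scale in wild-type hearts (adjusted p = 0.0147). In transgenic hearts it differed by -0.14 (adjusted p = 0.843), in the other direction from the leading probe, and neither passed. Hcn4 had 1 probe, which was not well above background on any array, so no comparison of it was made.

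**Figure D2:**
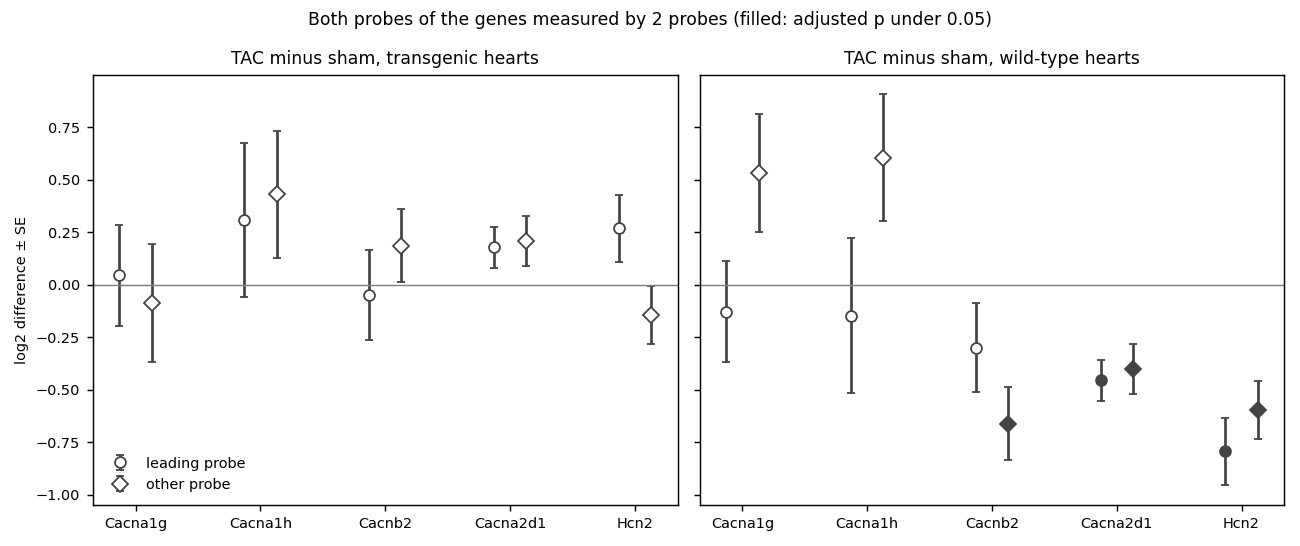
Log2 difference of TAC minus sham (± SE) at the leading probe (circle) and the other probe (diamond) of the 5 channel genes with 2 probes, in transgenic hearts (left) and wild-type hearts (right); filled symbols passed at an adjusted p under 0.05. Both probes of Cacna2d1 and Hcn2 passed in wild-type hearts, only the dimmer probe of Cacnb2 did, and none passed in transgenic hearts.

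The fall was measured against each array's own 75th percentile, and that choice bears on Hcn2, Cacna2d1, Cacna1c and the call of Scn4b. The unscaled log2 signal of Cacna1c was 6.96, 6.78 and 7.31 on wild-type TAC arrays. On wild-type sham arrays it was 6.66, 6.93 and 6.85, which overlaps. Before scaling, Hcn2 was at 13.64, 13.55 and 13.51 on the log2 scale on wild-type TAC arrays, against 13.62, 13.30 and 13.87 on wild-type sham arrays, which overlap. Unscaled Scn4b stayed apart, at 10.64, 11.27 and 8.56 on wild-type TAC arrays, against 12.16, 11.61 and 12.23 on wild-type sham arrays. Scaled on 10 spike-in probes, a choice made after seeing the data, the median of all probes for TAC in wild-type hearts moved from -0.12 to 0.50, and 0 channel genes passed. Scn4b then stood at -1.98 (adjusted p = 0.0794), Hcn2 at -0.18 (adjusted p = 0.653) and Cacna2d1 at 0.16. Relative to the median of all probes the differences were -2.48 for Scn4b, -0.68 for Hcn2 and -0.34 for Cacna2d1. These are the same under both scalings by construction, since each subtracts 1 constant per array.

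**Figure D3:**
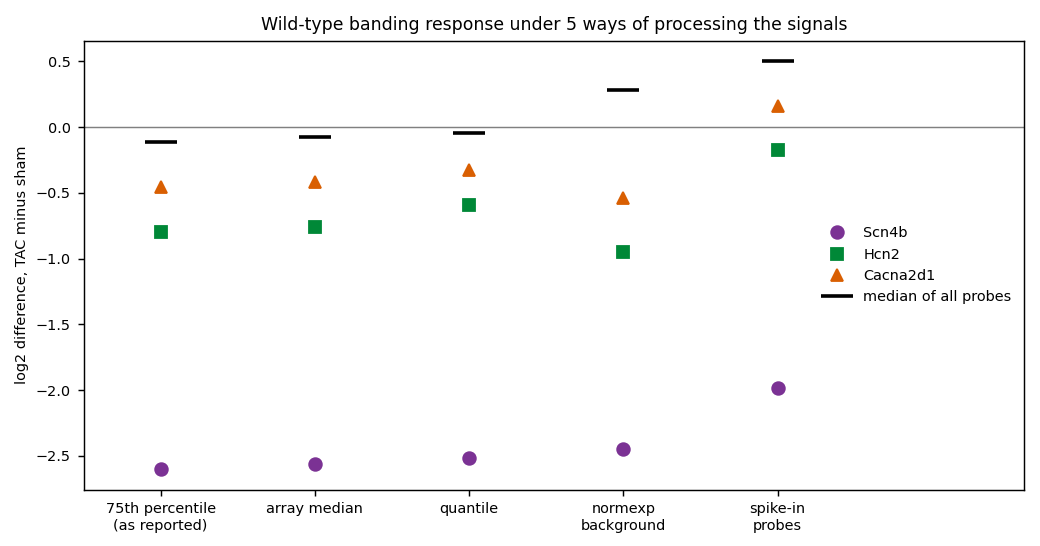
Log2 difference of TAC minus sham in wild-type hearts for Scn4b, Hcn2 and Cacna2d1 (symbols) and the median of all probes (bars) under 4 scalings of the arrays and with normexp background correction. Between 75th percentile, median and spike-in scaling the gaps to the median of all probes are fixed by construction; on spike-in probes Cacna2d1 lies above 0, at 0.16.

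Transgenic against wild-type hearts were compared within each surgery. After TAC, 1 of 7 channel genes passed, where 2.15% of named genes passed as higher and 4.67% in either direction: Hcn2 was higher in transgenic hearts by 0.79 ± 0.16 on the log2 scale (adjusted p = 0.0322). The other probe of Hcn2 gave 0.40 ± 0.14 and did not pass (adjusted p = 0.123). At the leading probe the Hcn2 call was lost with quantile (adjusted p = 0.0549), median (0.0601) and spike-in scaling (0.331), and with normexp background correction (0.259). Cacna2d1 differed by 0.30 ± 0.098 (adjusted p = 0.104), with arrays that did not overlap, and Scn4b by 0.90 ± 0.78 (adjusted p = 0.551), with arrays that did. Arrays of the 2 genotypes did not overlap for 3 of 7 genes, against 35.7% of named genes. After sham surgery 0 of 7 passed, where 1.57% of named genes did. The largest difference there was that of Scn4b, -3.37 ± 0.78 (adjusted p = 0.0696), followed by Cacna1h at -0.41, Cacna1g at -0.37 and Cacna1c at -0.37, and all 7 were below 0, with a median of -0.37 against -0.04 over all probes. Scaled on spike-in probes 6 of 7 lay above 0, with a median of 0.053 against 0.38, and Scn4b alone stayed below 0. For 2 of 7 genes the genotypes did not overlap, against 25.3% of named genes. Without wild-type TAC array 3 the sham difference of Scn4b passed (adjusted p = 0.0413), and the TAC difference of Hcn2 did not pass (0.74, adjusted p = 0.127). That of Hcn2 was also lost without transgenic TAC array 1 (0.66, adjusted p = 0.105), transgenic TAC array 2 (0.0850), wild-type TAC array 1 (0.0739), wild-type TAC array 2 (0.0592) or wild-type sham array 1 (0.0596).

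The TAC response of transgenic hearts minus that of wild-type hearts was tested directly. It passed for Scn4b, at 4.27 ± 1.10 on the log2 scale (adjusted p = 0.0473), for Cacna2d1, at 0.63 ± 0.14 (adjusted p = 0.0308), and for Hcn2, at 1.06 ± 0.23 (adjusted p = 0.0291), 3 of 7 genes, where 4.67% of named genes passed as higher and 8.86% in either direction. The other probes of Cacna2d1 (0.61, adjusted p = 0.0566) and Hcn2 (0.45, adjusted p = 0.184) did not pass. At the leading probes none of the 3 passed with quantile (adjusted p = 0.0719 to 0.0905) or median scaling (0.0627 to 0.186). Nor did any with normexp background correction (0.173 to 0.324) or spike-in scaling (0.0658 to 0.868). At the leading probes all 7 values were above 0 at this scaling and 4 of 7 on spike-in probes. The difference of responses was 0.59 ± 0.26 for Cacna1c (adjusted p = 0.189), 0.46 for Cacna1h, 0.25 for Cacnb2 and 0.17 for Cacna1g. At the other probes it was 0.85 for Cacnb2 (adjusted p = 0.0656), but below 0 for Cacna1g (-0.62) and Cacna1h (-0.17). This test shares all 12 arrays with the other comparisons and is not separate support for them. Without transgenic sham array 2, the one that stands apart, none of the 3 passed: Scn4b was at 4.17 (adjusted p = 0.0863), Cacna2d1 at 0.62 (0.0571) and Hcn2 at 0.99 (0.0566). With any 1 array left out the response difference lay between 3.45 and 4.97 for Scn4b, 0.56 and 0.68 for Cacna2d1 and 0.93 and 1.21 for Hcn2, and it passed in 3, 3 and 4 of 12 cases.

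**Figure D4:**
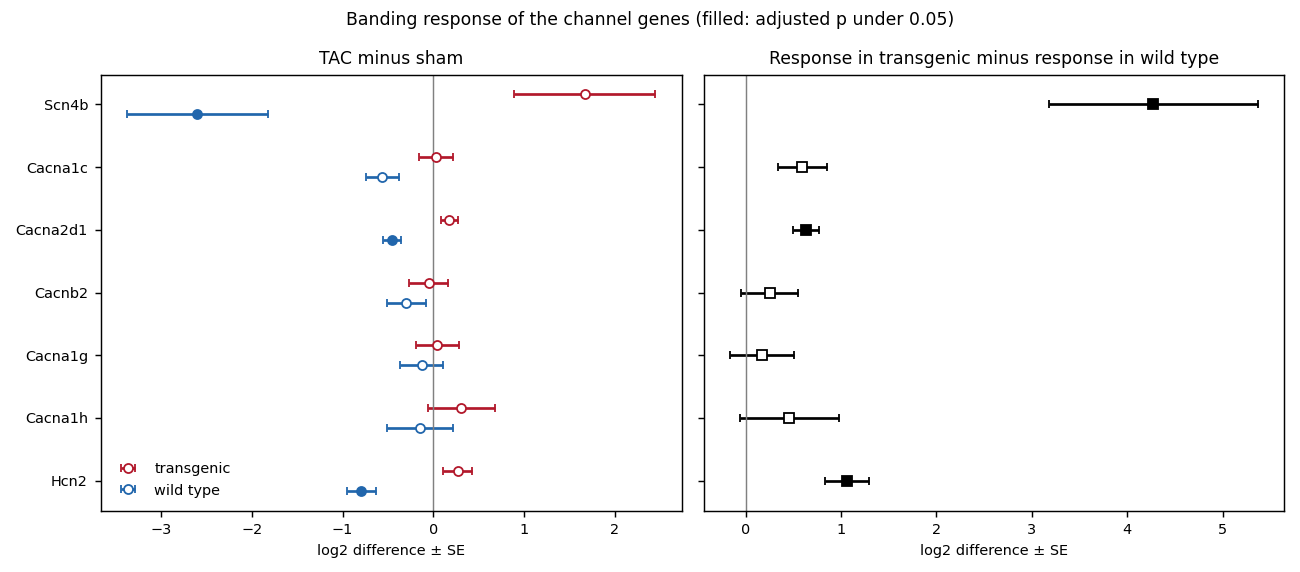
Log2 difference of TAC minus sham (± SE; 3 arrays a group) for the 7 measured channel genes in transgenic (red) and wild-type (blue) hearts, left, and the transgenic response minus the wild-type response, right; filled symbols passed at an adjusted p under 0.05. Scn4b, Cacna2d1 and Hcn2 are filled for wild type and for the difference of responses, with values relative to each array's 75th percentile. On spike-in probes the wild-type difference of Cacna2d1 is 0.16. No difference of responses passed with quantile, median or spike-in scaling or with normexp background correction.

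The arrays came from 5 slides, and only 1 slide held both surgeries of a genotype in each case. On the slide with 1 wild-type TAC and 2 wild-type sham arrays, the TAC difference was -1.40 for Scn4b, -0.35 for Cacna2d1 and -0.69 for Hcn2. On the slide with 1 transgenic TAC and 1 transgenic sham array it was 1.11 for Scn4b, 0.11 for Cacna2d1 and -0.18 for Hcn2. The wild-type values within a slide thus kept their direction, while that of Hcn2 in transgenic hearts was below 0. With slide as a fixed block 0 channel genes passed in any comparison. With slide as a random block (estimated correlation 0.224) Scn4b lost its wild-type fall (-2.55, adjusted p = 0.0549) and its difference of responses (4.27, adjusted p = 0.0563), Cacna1c fell by 0.61 on the log2 scale in wild-type hearts (adjusted p = 0.0434), and the calls of Cacna2d1 and Hcn2 held.

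Other cell markers moved with the same contrasts. The mean level of the 8 cardiomyocyte markers, relative to wild-type sham hearts, lay between -0.58 and -0.34 on transgenic TAC arrays, -0.42 and -0.32 on transgenic sham arrays, -0.78 and -0.64 on wild-type TAC arrays and -0.04 and 0.04 on wild-type sham arrays. In wild-type hearts 7 of these 8 markers were lower after TAC at the reported scaling, and 0 of 8 on spike-in probes. Of all named genes 13.1% passed there as lower at the reported scaling, and 24.9% in either direction. The 8 fibroblast markers lay between 0.63 and 0.88 on transgenic TAC arrays, 0.48 and 0.67 on transgenic sham arrays, 1.60 and 1.96 on wild-type TAC arrays and -0.26 and 0.32 on wild-type sham arrays, with 6 of 8 higher after TAC in wild-type hearts. Of the 9 measured of 10 atrial and conduction markers 1 rose in wild-type hearts and 0 fell. Of the markers of other cells, 4 of 6 endothelial, 3 of 6 smooth muscle and pericyte, 2 of 5 measured macrophage and 1 of 5 measured nerve markers rose there. 1 endothelial, 1 nerve and 1 of 4 measured skeletal muscle markers fell. In transgenic hearts, where 0% of named genes passed for TAC, none of the markers did. For the difference of responses 4 cardiomyocyte, 1 nerve and 1 skeletal muscle marker passed as higher, where 8.86% of named genes passed. As lower passed 5 fibroblast, 1 endothelial and 2 smooth muscle and pericyte markers. After TAC 4 fibroblast, 1 endothelial and 2 smooth muscle and pericyte markers were lower in transgenic hearts and 1 nerve marker higher, where 4.67% passed. The part of the markers in the channel results was not tested.

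Related genes were read from lists chosen for their roles. Of 12 other sodium channel genes 10 were measured, and in wild-type hearts 3 fell after TAC and 0 rose, with a median of -0.18, where 24.9% of named genes passed. Scn4a, the skeletal muscle pore, was at -1.02, -1.19 and -1.09 on transgenic TAC arrays, -0.94, -1.45 and -1.41 on transgenic sham arrays, -1.54, -1.59 and -1.84 on wild-type TAC arrays and -1.01, -1.17 and -0.93 on wild-type sham arrays. The wild-type TAC arrays were the 3 lowest of 12, and Scn4a fell by 0.62 ± 0.15 on the log2 scale (adjusted p = 0.0187). Scn8a, a neuronal pore (-0.56, adjusted p = 0.0302), and Scn10a, a sensory neuron pore (-1.80, adjusted p = 0.0193), also fell. On spike-in probes Scn4a was at -0.0015, Scn8a at 0.06 and Scn10a at -1.19, none of which passed. None of the 10 passed in transgenic hearts, in either transgenic comparison with wild type, or for the difference of responses.

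Of 21 other calcium channel genes 17 were measured, and 2 rose and 2 fell in wild-type hearts, near the 24.9% of all named genes, with a median of -0.42. Cacnb1, a beta subunit like that of Cacnb2 and the main one of skeletal muscle, was at -1.44, -1.25 and -1.46 on transgenic TAC arrays, -1.61, -1.62 and -1.40 on transgenic sham arrays, -0.84, -0.98 and -0.48 on wild-type TAC arrays and -1.85, -2.03 and -2.11 on wild-type sham arrays. The wild-type TAC arrays were the 3 highest, and Cacnb1 rose by 1.23 ± 0.15 (adjusted p = 0.00134). It passed as lower in transgenic than wild-type hearts after TAC (-0.61, adjusted p = 0.0496) and in the difference of responses (-1.07 ± 0.21, adjusted p = 0.0240). Cacna1s, the skeletal muscle L-type pore, was at 2.37, 1.44 and 1.89 on transgenic TAC arrays, 2.04, 1.49 and 1.75 on transgenic sham arrays, 1.30, 1.06 and 0.61 on wild-type TAC arrays and 2.48, 2.55 and 2.79 on wild-type sham arrays. The wild-type TAC arrays were the 3 lowest of 12. Cacna1s fell by 1.62 ± 0.26 on the log2 scale in wild-type hearts (adjusted p = 0.00343), and the difference of responses was 1.76 ± 0.37 (adjusted p = 0.0271). Cacnb3, another beta subunit, rose by 0.91 (adjusted p = 0.0350) and Cacna1a, a neuronal pore, fell by 1.56 on the log2 scale (adjusted p = 0.0247). On spike-in probes neither fall passed (Cacna1s -1.0 and Cacna1a -0.94). Hcn3, another pacemaker subunit, differed by -0.56 in wild-type hearts (adjusted p = 0.313).

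Of 24 channel partners and regulators, all measured, 2 rose and 3 fell in wild-type hearts, again near the 24.9% of all named genes, with a median of -0.11. The list holds Mog, a myelin gene entered in error, which did not pass. Fgf13, an intracellular modulator of sodium channels, was at -0.34, -0.56 and -0.68 on transgenic TAC arrays, -0.29, -0.42 and -0.11 on transgenic sham arrays, -0.91, -0.83 and -1.0 on wild-type TAC arrays and 0.13, 0.15 and -0.09 on wild-type sham arrays. It fell by 0.98 ± 0.13 on the log2 scale in wild-type hearts (adjusted p = 0.00183), and the difference of responses was 0.73 ± 0.18 (adjusted p = 0.0438). Jph2, which ties the cell membrane to the calcium store beside L-type channels, fell by 0.72 (adjusted p = 0.00860), and Sptbn4, a membrane scaffold, by 0.87 (adjusted p = 0.0492), both on the log2 scale. Gem, a small GTPase that inhibits L-type channels through the beta subunit, rose by 1.44 ± 0.32 (adjusted p = 0.0118), and Bin1, which shapes the T-tubule membrane, rose by 0.89 ± 0.13 (adjusted p = 0.00258). On spike-in probes none of the 3 falls passed (Fgf13 -0.36, Jph2 -0.10 and Sptbn4 -0.25), and the list medians in wild-type hearts lay above 0 for the sodium channel, calcium channel and partner lists.

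**Figure D5:**
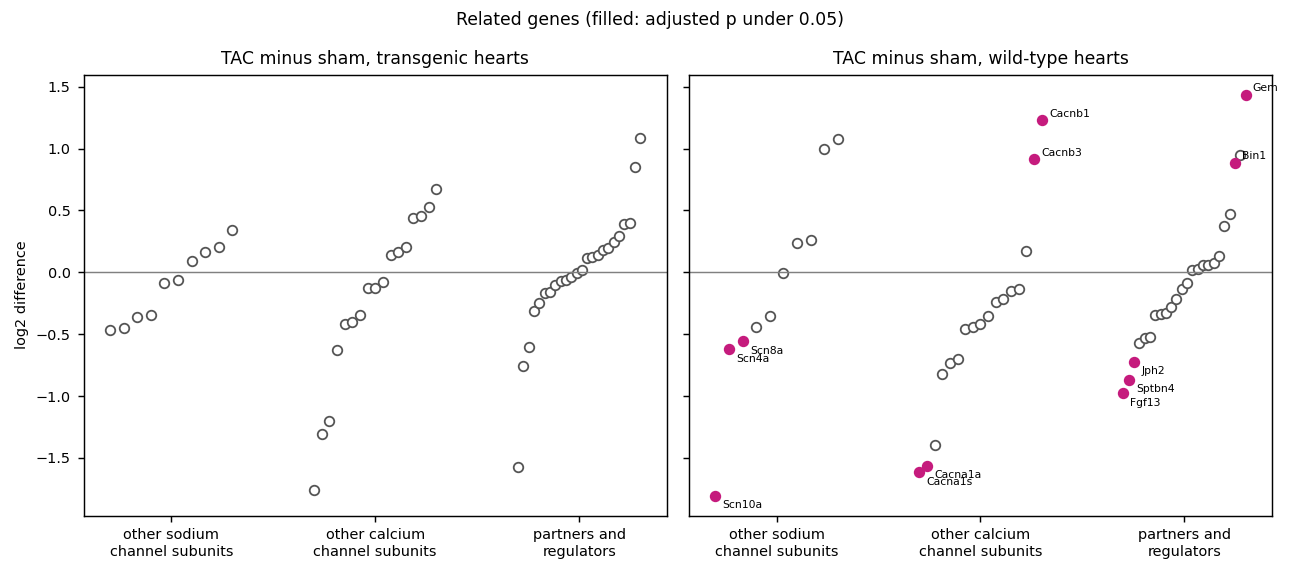
Log2 difference of TAC minus sham for each measured gene of the lists of other sodium channel subunits, other calcium channel subunits and channel partners, sorted within a list, in transgenic hearts (left) and wild-type hearts (right), relative to each array's 75th percentile. Filled, named points passed at an adjusted p under 0.05 and are found in wild-type hearts only; on spike-in probes none of the named falls passed.

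The genes whose level followed each member most closely were taken among the 9378 or 9379 other named genes measured on all 12 arrays, as a description over arrays that share the 4 groups. They were Tsacc (r = 0.98), Tmod4 (0.98) and Sdhaf4 (0.97) for Scn4b, Pmpca (0.99), Magix (0.97) and Mto1 (0.97) for Cacna2d1, and Tmem215 (0.99), Slurp2 (0.98) and Nanos3 (0.97) for Hcn2. For the genes whose leading probe passed no comparison, the first were Flii for Cacna1c (0.86), Mthfd2l for Cacnb2 (0.84), Elapor1 for Cacna1g (0.91) and Tpra1 for Cacna1h (0.95). Among the members, Cacna2d1 and Hcn2 correlated at 0.85, Scn4b and Cacna2d1 at 0.81, and Cacna1g and Hcn2 at 0.01.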

How the data were processed

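Left ventricular RNA of 12 samples was labelled with Cy3 and hybridised alone on each array, per the labels. The deposited array files hold spot intensities from Feature Extraction 10.7.3.1, per the file headers: a processed signal with background subtracted, and the median brightness of spot and surroundings. The deposited table holds log2 values from the authors. Its differences between arrays matched the scaled signals (r = 1.00 over 30346 probes), its column medians lay between -0.095 and 0.121, and it is used only as an alternative; its centring is not stated. The submitters' processing notes name RMA without saying for what.

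Of 43020 non-control spots, those marked as outliers were left out, spots of a probe were averaged as log2, and the array's 75th percentile was taken off. A RefSeq table of GRCm38.p6 gave names, by transcript accession, to 26424 of 39429 probes; no channel probe lacked a spot on any array, and none was saturated. No pair of arrays was identical. Probes that at least 3 of 12 arrays showed well above background were fitted with limma 3.58.1 in R 4.3.3, with a mean per group over all 12 arrays (8 residual and 1.80 prior degrees of freedom), two-sided tests and Benjamini-Hochberg adjustment over all probes fitted. The fit was tested on simulated data. For background correction with normexp (offset 50) the median spot signal was used. The number of arrays limits the precision. Alternatives were other scalings and background correction, filters, variance models, blocks for replicate number and slide, the deposited table and each array left out.

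The channel genes, the related and marker lists and the motifs were chosen with earlier results of these data known. Every probe of the channel genes was read, but some levels and comparisons of the other probes are not given. Of a related list the text names genes past the threshold and, for the channel genes, the most closely correlated others. Some genes of the related lists are not reported here.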

Additional observations from a re-analysis of the deposited data

Results flagged for a closer look

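The TAC response of transgenic hearts minus that of wild-type hearts passed the limma test for 6 of 59 channel and related genes (10.2%), near the 8.86% of all named genes. On the log2 scale it was 4.27 for Scn4b, 0.63 for Cacna2d1 and 1.06 for Hcn2. It was 1.76 for Cacna1s, 0.73 for Fgf13 and -1.07 for Cacnb1. Under spike-in scaling, added after seeing the data, the values were 3.76 for Scn4b, 0.12 for Cacna2d1, 0.55 for Hcn2, 1.24 for Cacna1s, 0.21 for Fgf13 and -1.58 for Cacnb1, and only Cacnb1 passed (adjusted p = 0.0240).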

How the results depend on the processing

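Of 893 values of the channel genes under the alternatives, 758 kept direction and side of the threshold, 81 lost a call, 7 gained one and 47 reversed, and 0 of the reversed ones passed. The fall in wild-type hearts kept its call in 14 of 26 alternatives for Scn4b (-3.17 to -1.78), 20 of 26 for Cacna2d1 (-0.54 to 0.16) and 24 of 26 for Hcn2 (-0.95 to -0.18), the last lost with slide as a fixed block and on spike-in probes. The difference of responses kept its call in 8 of 25 for Scn4b, 9 of 25 for Cacna2d1 and 10 of 25 for Hcn2, and Hcn2 after TAC in 12 of 26. Causes were not tested. The counts of probes called are given for TAC in wild type (6443), transgenic against wild type after TAC (1218) and after sham (386), and the difference of responses (2188).

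Median scaling gave 4268, 463, 202 and 692 probes, and no filter gave 397 after TAC, 121 after sham and 572 for the difference of responses, each with 0 channel genes for the difference of responses and after TAC. Normexp gave 1389, 36, 48 and 0 probes, and 1 channel gene in wild type. Quantile scaling gave 184 after sham and 991 for the difference of responses, and 1 channel gene in wild type; spike-in scaling gave 253 after TAC, 653 after sham and 0 channel genes. A slide block gave 294, 11, 21 and 0 probes and 0 channel genes. Trended robust variance gave 2643, 1089 and 3576 probes outside the wild-type comparison, with 2 channel genes after TAC and 1 after sham, and a filter on all 12 arrays 2993, 1246 and 3763, with 2 and 2. Fitting the compared groups alone gave 80 after TAC, with 0 channel genes, and 32 after sham.

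Higher against lower calls for TAC in wild type were 2643 and 3800 as reported, 2517 and 2355 by quantile, 2126 and 2142 by median, 683 and 706 with normexp and 7154 and 131 on spike-in probes; for the difference of responses they were 1287 and 901, 372 and 619 by quantile, 222 and 470 by median, and 21 and 1615 on spike-in probes.

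Whether replicate numbers pair the arrays was not settled. The 18 same-number pairs had correlations of -0.229 to 0.276, 7 of them over 0.1, and were not compared with pairs of unlike number. With the replicate block 405 probes after TAC, 116 after sham and 816 for the difference of responses were called; the 3 wild-type channel calls passed, and 0 channel genes passed after TAC or for the difference of responses.

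With 1 array left out, counts ran from 0 to 2 in transgenic TAC (2 without transgenic TAC array 3), 3337 to 7397 in wild-type TAC, 180 to 1640 after TAC, 76 to 705 after sham and 0 to 2818 for the difference of responses; the wild-type count fell to 3337 without wild-type TAC array 3, 3399 without wild-type sham array 1 and 3779 without wild-type sham array 3. Channel genes called ran from 1 to 3 in wild-type TAC, 0 to 1 after TAC, 0 to 1 after sham and 0 to 3 for the difference of responses.

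Reversed values for TAC in transgenic hearts were, for Cacna1c, -0.035 by median, -0.031 by quantile, -0.028 with the random slide block and -0.35 with the fixed slide block; for Cacna1g, -0.022 by median, -0.0031 with the random and -0.39 with the fixed block; for Hcn2, -0.094 with the fixed block; for Cacnb2, 0.054 on spike-in probes. For TAC in wild type, normexp gave 0.022 for Cacna1g and 0.30 for Cacna1h, and spike-in scaling 0.054 for Cacna1c, 0.49 for Cacna1g, 0.47 for Cacna1h, 0.16 for Cacna2d1 and 0.32 for Cacnb2. After TAC, Cacna1c was -0.062 with normexp and -0.10 with the fixed block, and Cacna1h -0.11 with normexp and -0.046 on spike-in probes. After sham, Cacnb2 was 0.043 by median, 0.028 with normexp, 0.11 with the fixed block and 0.34 on spike-in probes, where Cacna1c was 0.053, Cacna1g 0.045, Cacna1h 0.012, Cacna2d1 0.091 and Hcn2 0.15. The difference of responses for Cacna1g was -0.15 with the fixed block and -0.34 on spike-in probes, where Cacna1h was -0.058 and Cacnb2 -0.26. With 1 array left out, the transgenic TAC difference ran from -0.072 to 0.14 for Cacna1c, -0.29 to 0.27 for Cacna1g, -0.062 to 0.72 for Cacna1h and -0.23 to 0.052 for Cacnb2; the wild-type one of Cacna1h from -0.29 to 0.045; that after TAC of Cacna1h from -0.15 to 0.21; that after sham of Cacnb2 from -0.25 to 0.10; and the difference of responses of Cacna1g from -0.16 to 0.40.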
